A study of Mus musculus with 12 samples.

Results

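The Ikaros family consists of 5 zinc-finger transcription factors that are encoded by Ikzf1 (Ikaros), Ikzf2 (Helios), Ikzf3 (Aiolos), Ikzf4 (Eos), and Ikzf5 (Pegasus). The genes were taken by their symbols, and all 5 were found in both deposited expression tables, which together list 11247 genes. The tables hold RNA-seq values of murine T cells after 3 days of culture, in 12 libraries that come as 4 Th0, 4 Th17, and 4 iTreg libraries, one of each per numbered experiment. All cells were naive CD4+CD62L+ T cells from the spleens of C57BL/6 mice aged 8 to 10 weeks, and all were activated with 1 μg/ml plate-bound anti-CD3 and 1 μg/ml anti-CD28. Th0 cells received no polarizing cytokine. Th17 cells were given 30 ng/ml IL6, 5 ng/ml TGFb1, and 10 μg/ml each of anti-IL4 and anti-IFNγ. iTreg cells were given 10 ng/ml IL2 and, per the labels, 10 ng/ml TGFb1, for which the study's methods state a higher dose. The effects of the separate agents in a mixture cannot be told apart. Th17 and Th0 cells are compared in one table and iTreg and Th0 cells in the other, and the same Th0 libraries stand in both. The comparisons ask which transcripts changed when activated T cells were polarized to either fate.

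Ikaros family proteins bind DNA through zinc fingers in their amino-terminal part and pair with each other through fingers at the carboxy terminus. Many of their effects on genes go through corepressor complexes, the NuRD complex with the ATPase Mi-2β (Chd4), the Sin3 complex, and CtBP. Ikaros and Aiolos are required for normal lymphocyte development, Helios marks a large part of the regulatory T cells that form in the thymus, Eos works with Foxp3 in regulatory T cells, and Aiolos has been described as a repressor of Il2 in Th17 cells. Pegasus is the most divergent member and is expressed in many tissues.

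The likeness of the members shows in the coding bases of the second zinc finger from the amino terminus, which is part of the DNA-binding group of fingers. The bases were read from the transcript with the longest coding sequence of each gene in GENCODE vM21, on GRCm38 (mm10). Each finger lies within 1 coding exon and runs over 63 bases, or 21 codons, from its first cysteine to its last histidine. Capitals mark bases that differ from Ikzf1 at the same position, with the fingers set side by side without gaps.
Ikzf1: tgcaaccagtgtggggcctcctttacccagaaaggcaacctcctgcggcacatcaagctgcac
Ikzf2: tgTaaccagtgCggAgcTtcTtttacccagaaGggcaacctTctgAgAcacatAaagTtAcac
Ikzf3: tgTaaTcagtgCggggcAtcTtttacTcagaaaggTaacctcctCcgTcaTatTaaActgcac
Ikzf4: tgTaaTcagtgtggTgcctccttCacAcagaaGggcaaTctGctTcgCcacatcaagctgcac
Ikzf5: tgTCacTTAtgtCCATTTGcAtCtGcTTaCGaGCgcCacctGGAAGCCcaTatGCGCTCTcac

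The finger of Ikzf1 lies on the plus strand at chr11:11754024-11754086. The other fingers lie on the minus strand of their chromosomes, that of Ikzf2 at chr1:69570581-69570643, that of Ikzf3 at chr11:98488940-98489002, that of Ikzf4 at chr10:128640229-128640291, and that of Ikzf5 at chr7:131392501-131392563. Ikzf2 and Ikzf3 each differed from Ikzf1 at 12 bases and Ikzf4 at 10 bases, which is an identity of 81.0% for the first pair and 84.1% for Ikzf4. In these 3 genes 0 of the changed codons encoded another residue than in Ikzf1. The finger of Ikzf5 shared 41.3% of its bases with that of Ikzf1, and 16 of its 21 codons encoded another residue. The coding sequence of Ikzf1 held 6 finger motifs and that of Ikzf5 held 5, with fewer in the amino-terminal group of Ikzf5. Its second finger may therefore not be the counterpart of the second finger of Ikzf1. The genes themselves span chr11:11685003-11772926 (Ikzf1), chr1:69531214-69687245 (Ikzf2), chr11:98464902-98546031 (Ikzf3), chr10:128630843-128645991 (Ikzf4), and chr7:131388652-131410521 (Ikzf5). The authors counted reads on exons without regard to strand. None of the exonic bases of Ikzf1 and Ikzf3 are shared with another annotated gene, and 1.24% of those of Ikzf2 and 0.617% of those of Ikzf4 are. In Ikzf5, 84.5% of the exonic bases are shared with genes on the opposite strand, mostly with Pstk, a kinase of selenocysteine synthesis. Without strand, a read on the shared bases cannot be assigned to either gene, and counting in union mode leaves such reads out. The Ikzf5 level may therefore rest mainly on its other exonic bases, though the annotation that was counted on is not known. All isoforms of a gene are counted together, so that Ikaros forms which lack DNA-binding fingers are part of the Ikzf1 level.

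Levels are given in FPKM, which scales the fragments of a gene to its length and to the depth of the library, so that genes can be set beside each other. The gene lengths used for this are not known, and the order of members with similar levels depends on them. For Ikzf5 the comparison is also uncertain, because reads on its shared exonic bases may be missing from its level. Whole reads could be worked back from the steps between low values, and the listed genes held between 6819080 and 10046440 reads per library. Libraries are named by the beginning of their column headings (M22, M29, M42, and M43), which recurs in each group, and values are given in that order. The T cell genes Cd3e, Cd3d, Cd3g, Cd4, Cd28, and Cd5 summed to between 713 and 2028 FPKM per library. Of 5 B cell genes, only Cd79a is listed, at 0.505 to 3.84 FPKM, and none of the dendritic, NK, or erythroid markers are listed. Of 5 myeloid genes, Itgam and Cd68 are listed in the Th17 table, where they summed to 3.34 to 5.03 FPKM in Th0 and 5.58 to 16.5 FPKM in Th17 libraries, and Cd68 alone in the iTreg table, at 3.19 to 4.85 FPKM in Th0 and 2.61 to 7.19 FPKM in iTreg libraries. Of the CD8 T cell genes, Cd8b1 is listed, at 2.19 to 6.60 FPKM, and Cd8a is not. The part of such cells in the results was not tested. The Th17 markers Il17a and Il17f summed to 289 to 853 FPKM in Th17 libraries against 0.0909 to 0.227 FPKM in Th0 libraries. Il17f, which alone of these is listed in the iTreg table, lay at 26.9 to 99.2 FPKM in iTreg libraries against 0.0898 to 0.181 FPKM in Th0 libraries. Foxp3, which defines regulatory T cells, lay at 62.0 to 91.7 FPKM in iTreg and at 2.01 to 7.15 FPKM in Th0 libraries of the same table. The Th17 library M43 stood apart from its group, with 42.5 FPKM of Foxp3 against 0.499, 0.502, and 4.50 FPKM in the other Th17 libraries. Th17 results for Ikzf4 and Foxp3 are given with and without this library.

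The balance between Ikaros and Aiolos transcripts shifted toward Aiolos in Th17 cells. As ratios of mean FPKM, Ikzf3 was up-regulated 8.26-fold and Ikzf1 was down-regulated 2.17-fold compared to Th0 cells. By FPKM, Ikzf3 took the place of Ikzf1 as the most abundant family transcript, an order that depends on the gene lengths used. In reads, which are not scaled to length, Ikzf3 lay above Ikzf1 in Th17 libraries M22, M29, and M42 (4907, 7407, and 5224 against 3125, 4092, and 3388). It lay below Ikzf1 in M43 (3715 against 3949). In iTreg cells, Ikzf1 was down-regulated 2.27-fold and Ikzf4, the gene of the Foxp3 partner Eos, was up-regulated 6.39-fold. Ikzf2 was the least abundant member in all 3 groups, and Ikzf5 lay within 8.60 to 11.9 FPKM in every library. The plot of levels by library shows these patterns.

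**Figure D1:**
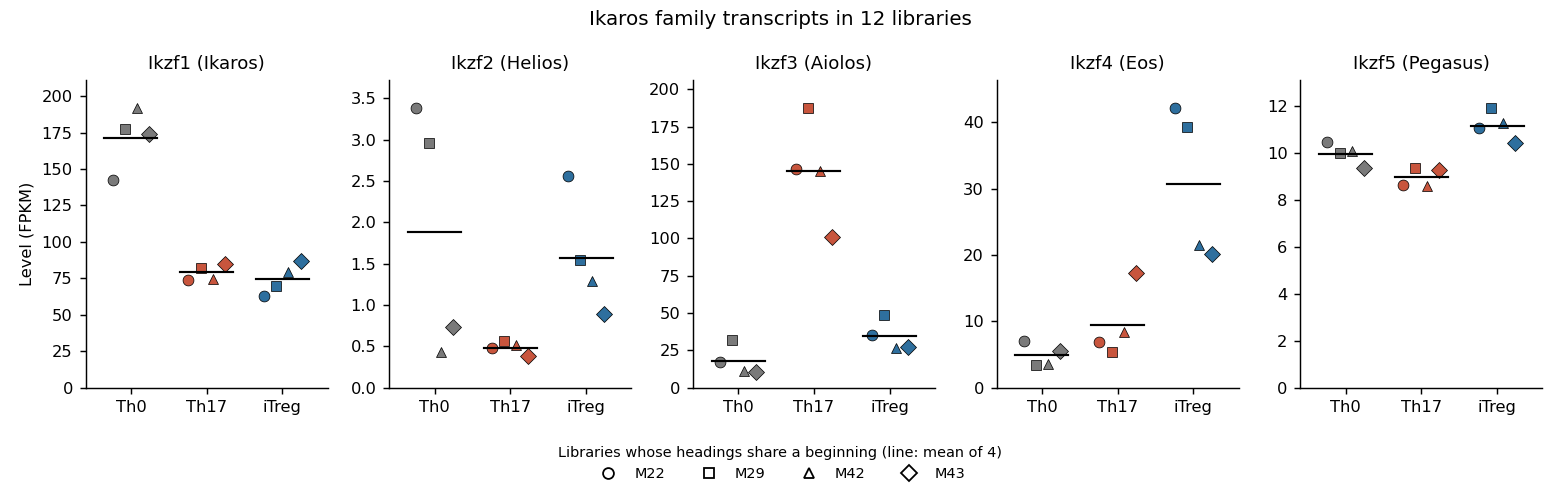
Level of each Ikaros family gene in FPKM (vertical axes, from 0 and with a separate scale for each gene) in 4 Th0, 4 Th17, and 4 iTreg libraries. Each point is a library, its shape gives the beginning of its heading, and black lines are group means. Th0 and Th17 values come from the Th17 table and iTreg values from the iTreg table. Ikzf3 lies at 101 to 188 FPKM in Th17 libraries and below 50 FPKM in all others, and Ikzf4 is at 20.2 FPKM or above in iTreg libraries and at 17.3 FPKM or below in all others.

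Genes were tested in each table with limma on log2(FPKM + 1), and p-values were adjusted by Benjamini-Hochberg over all tested genes. Of the 10269 genes tested in the Th17 comparison, 19.3% were DE at an adjusted p under 0.05, with 10.6% higher and 8.69% lower in Th17 cells. Of the 10208 genes tested in the iTreg comparison, 16.6% were DE, with 8.36% higher and 8.21% lower in iTreg cells. The groups did not overlap for 23.8% of the genes in the Th17 and for 22.8% in the iTreg comparison. With a block for libraries whose headings share a beginning, 37.8% and 40.9% of the genes were DE. Of the family, 4 genes were tested in the Th17 comparison, and 1 was higher and 1 lower. All 5 were tested in the iTreg comparison, and again 1 was higher and 1 lower. With the block, 2 were higher and 1 lower in each comparison. The groups did not overlap for Ikzf1 and Ikzf3 in the Th17 comparison and for Ikzf1, Ikzf4, and Ikzf5 in the iTreg comparison. For these 5, a two-sided exact permutation test of 4 against 4 libraries gave p = 0.0286, not adjusted and the smallest p it allows, while the other tested members had p = 0.143 (Ikzf4) and 0.0571 (Ikzf5) in Th17 and 0.971 (Ikzf2) and 0.0857 (Ikzf3) in iTreg cells.

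Ikzf1, which encodes Ikaros, was the most abundant member in Th0 cells, with 143, 177, 192, and 174 FPKM. Its level in the Th17 libraries was 74.2, 82.3, 74.8, and 85.0 FPKM. All Th17 libraries lay below all Th0 libraries, and the decrease from Th0 was of similar size in each of the 4 cultures, to between 0.390 and 0.520 of the level in the Th0 library with the same beginning. The means were 79.1 ± 5.38 FPKM in Th17 and 172 ± 20.8 FPKM in Th0 cells (SD, n = 4 each). The difference on the log2(FPKM + 1) scale was -1.10 (SE 0.117, limma adjusted p = 0.000298). In the iTreg libraries Ikzf1 was at 62.9, 70.0, 79.4, and 86.8 FPKM, again with no overlap with Th0 cells. The iTreg mean was 74.8 ± 10.5 FPKM against 170 ± 20.6 FPKM in Th0 cells of the same table (SD, n = 4 each). The log2 difference was -1.17 (SE 0.135, limma adjusted p = 0.000660). Ikzf1 was therefore DE in both comparisons, and its Th17 and iTreg levels, which were scaled in separate tables, overlapped. Even at the lower level, Ikzf1 was above at least 89.4% of the listed genes in each polarized library. Since these are bulk samples, fewer cells with a transcript and less of it per cell cannot be told apart.

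Ikzf3, which encodes Aiolos, had 16.9, 32.3, 10.9, and 10.2 FPKM in Th0 libraries. In Th17 libraries it had 147, 188, 145, and 101 FPKM. The lowest Th17 library was more than 3 times the highest Th0 library, and the ratio between libraries of the same beginning ran from 5.82 in M29 to 13.4 in M42. The mean rose from 17.6 ± 10.2 FPKM in Th0 to 145 ± 35.5 FPKM in Th17 cells (SD, n = 4 each), a log2 difference of 3.09 (SE 0.345, limma adjusted p = 0.000396). This moved Ikzf3 from above 44.6% to 77.4% of the listed genes in Th0 libraries to above 94.6% to 97.5% of them in Th17 libraries.

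In iTreg libraries Ikzf3 was at 35.5, 48.7, 26.8, and 26.9 FPKM, so that all but the M29 Th0 library lay below the iTreg libraries. The M29 library was the highest of its group in Th0, Th17, and iTreg cells alike. The iTreg mean was 34.5 ± 10.3 FPKM, which is 1.98 times the Th0 mean of 17.4 ± 10.2 FPKM (SD, n = 4 each). The log2 difference was 1.05 (SE 0.351) and did not pass the threshold without a block (limma adjusted p = 0.0768). With libraries of the same beginning as a block the SE fell to 0.126 and the difference passed (limma adjusted p = 0.00106, 95% interval 0.75 to 1.35). Ikzf3 was higher in the iTreg library in 4 of 4 such pairs, by 1.52 to 2.67 times. Of 8 fits without a block that left out 1 library, only 1 passed. This was the fit without the M29 Th0 library, at a log2 difference of 1.38 (limma adjusted p = 0.0104). Among these 8 fits the limma adjusted p ran up to 0.172. With the block, all 4 fits that left out the libraries of a beginning passed (limma adjusted p up to 0.00675).

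**Figure D2:**
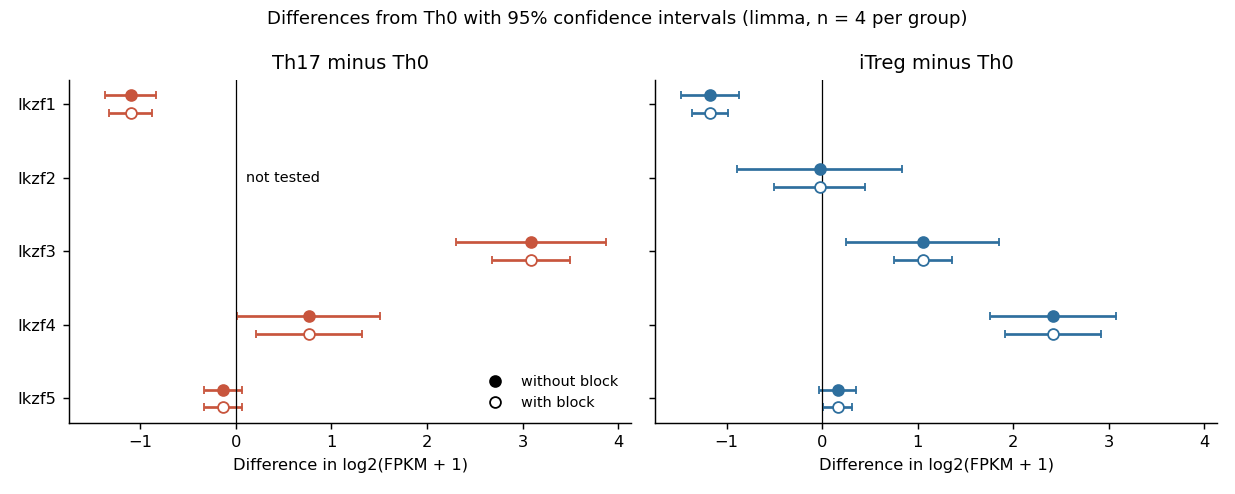
Difference from Th0 in log2(FPKM + 1) for each Ikaros family gene (horizontal axis), in Th17 cells on the left and iTreg cells on the right, with 4 libraries per group. Bars are 95% confidence intervals from limma, filled points are fits without and open points fits with a block for libraries of the same beginning. The block leaves the differences as they are and narrows the intervals, most of all for Ikzf3 in iTreg cells, and Ikzf2 was under the filter on low values in the Th17 table.

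Ikzf4, which encodes Eos, was a minor transcript in Th0 cells, with 6.97, 3.49, 3.53, and 5.50 FPKM. In iTreg libraries it had 42.2, 39.3, 21.5, and 20.2 FPKM. The groups did not overlap, and the iTreg libraries M22 and M29 had levels close to each other and well above those of M42 and M43. The iTreg mean was 30.8 ± 11.6 FPKM against 4.82 ± 1.66 FPKM in Th0 cells (SD, n = 4 each). The log2 difference was 2.42 (SE 0.291, limma adjusted p = 0.000844), and the ratio between libraries of the same beginning ran from 3.71 in M43 to 11.4 in M29. Ikzf4 was the only member that was called higher in iTreg cells without the block.

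In Th17 libraries Ikzf4 was at 6.91, 5.42, 8.35, and 17.3 FPKM. The M43 library was the highest, and the M22 library was at the level of its Th0 counterpart. The mean of 9.51 ± 5.36 FPKM was 1.95 times that of 4.87 ± 1.69 FPKM in Th0 cells (SD, n = 4 each), and the log2 difference of 0.76 (SE 0.329) did not pass the threshold (limma adjusted p = 0.147). With the block it did (limma adjusted p = 0.0408, 95% interval 0.21 to 1.32). Without the M43 library, the log2 difference was 0.45 (limma adjusted p = 0.254), and with the block and both M43 libraries left out it was 0.52 (limma adjusted p = 0.114). The blocked call was also lost when the M29 or the M42 libraries were left out (limma adjusted p = 0.0606 and 0.121), with log2 differences of 0.84 and 0.67.

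Foxp3 was measured beside Ikzf4 in the same libraries. The Th17 library M43, with the most Ikzf4 of its group, also had the most Foxp3, as given above. Th17 libraries M22 and M29 had the least Foxp3 of all 12 libraries and no more Ikzf4 than 6.91 FPKM. In iTreg libraries Foxp3 was at 91.7, 66.6, 62.0, and 80.5 FPKM, so that M43 held the second-highest Foxp3 and the lowest Ikzf4 of the group. The part of Foxp3-expressing cells in the Ikzf4 levels was not tested. The plot of both genes by library shows the 5 libraries with more than 40 FPKM of Foxp3 at 17.3 FPKM of Ikzf4 or above, and the other 7 at 8.35 FPKM or below.

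**Figure D3:**
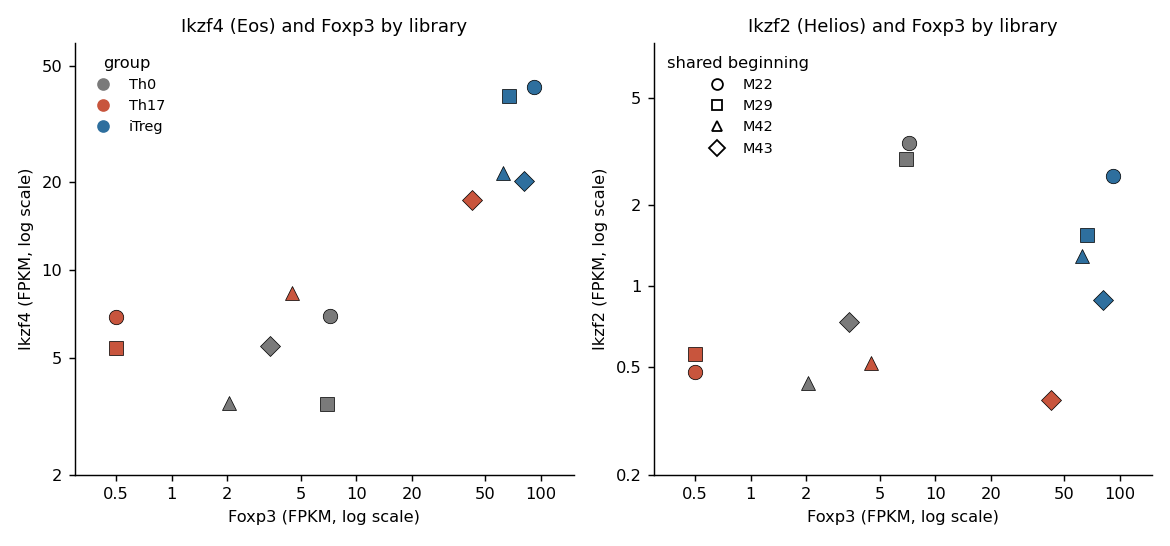
Ikzf4 (left) and Ikzf2 (right) against Foxp3, in FPKM on log scales, in 12 libraries. Colour gives the group and shape the beginning of the heading. iTreg libraries and the Th17 library M43 lie to the right, at 42.5 FPKM of Foxp3 or more, with Ikzf4 at 17.3 FPKM or above, and the highest Ikzf2 levels are in Th0 libraries M22 and M29, with 3.39 and 2.96 FPKM.

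Ikzf2, which encodes Helios, was low in every library. It had 3.39, 2.96, 0.436, and 0.739 FPKM in Th0 libraries, which rest on 239, 219, 38, and 65 reads. Th0 libraries thus fell into a pair with about 3 FPKM and a pair under 1 FPKM, and the pair with more Ikzf2 also had more Foxp3, at 7.24 and 6.91 FPKM against 2.04 and 3.41 FPKM. In Th17 libraries Ikzf2 was at 0.481, 0.562, 0.521, and 0.377 FPKM, from 32 to 51 reads, and the gene was under the filter of more than 1 FPKM in at least 4 of 8 libraries. It lay below the Th0 library of the same beginning in M22, M29, and M43 and above it in M42. The descriptive log2 difference was -0.79, and a two-sided exact permutation test of the 4 Th17 against the 4 Th0 libraries gave p = 0.114.

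iTreg libraries held more Ikzf2 than Th17 libraries, with 2.56, 1.55, 1.30, and 0.890 FPKM. Their range lay within that of Th0 libraries, and the log2 difference was -0.03 (SE 0.381, limma adjusted p = 0.976), with a 95% interval from -0.89 to 0.84 that leaves room for a change in either direction. The sign of this difference turned with a smaller pseudocount and with some libraries left out. Ikzf2 was higher in the iTreg library than in the Th0 library of the same beginning in M42 and M43 and lower in M22 and M29.

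Ikzf5, which encodes Pegasus, was the steadiest member. Its levels were 10.5, 10.0, 10.1, and 9.37 FPKM in Th0, 8.63, 9.39, 8.60, and 9.29 FPKM in Th17, and 11.1, 11.9, 11.3, and 10.4 FPKM in iTreg libraries. Each Th17 library was lower, and each iTreg library higher, than the Th0 library of the same beginning. The log2 differences were -0.14 for Th17 (SE 0.0880, limma adjusted p = 0.314, 95% interval -0.34 to 0.06) and 0.16 for iTreg cells (SE 0.0841, limma adjusted p = 0.234, 95% interval -0.03 to 0.35). Neither passed the threshold without or with the block (limma adjusted p with the block = 0.228 and 0.0844). iTreg and Th0 libraries did not overlap in their own table, with a lowest iTreg level of 10.4 FPKM just above the highest Th0 level of 10.3 FPKM. Pstk, which shares most of the exonic bases of Ikzf5, was at 10.2 ± 0.823 FPKM in Th17 and 7.88 ± 1.77 FPKM in iTreg cells, against 9.45 ± 0.889 and 9.35 ± 0.885 FPKM in Th0 cells of the same table (SD, n = 4 each). Its log2 differences of 0.10 and -0.24 did not pass the threshold (limma adjusted p = 0.579 and 0.361).

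The order of the members by FPKM differed between the groups, and it depends on the gene lengths used, which are not known. In Th0 libraries Ikzf1 was far above the rest, Ikzf3 (10.2 to 32.3 FPKM) and Ikzf5 (9.37 to 10.5 FPKM) overlapped, and Ikzf4 and Ikzf2 followed. In Th17 libraries the order was Ikzf3, then Ikzf1, then Ikzf4 and Ikzf5, whose ranges overlapped, and then Ikzf2. In iTreg libraries Ikzf1 was first, Ikzf3 and Ikzf4 overlapped, and Ikzf5 and Ikzf2 came last. The summed level of the 5 genes was 206 ± 20.2 FPKM in Th0 and 243 ± 30.4 FPKM in Th17 cells, and 153 ± 13.7 FPKM in iTreg against 204 ± 20.2 FPKM in Th0 cells of that table (SD, n = 4 each).

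As shares of this sum, Ikzf1 made up 78.5% to 88.5% in Th0, 28.8% to 40.0% in Th17, and 40.8% to 59.8% in iTreg libraries. Ikzf3 made up 5.01% to 14.3% in Th0, 47.4% to 65.8% in Th17, and 18.5% to 28.4% in iTreg libraries. Neither gene's share in Th0 overlapped with its share in polarized cells. Ikzf4 made up 1.54% to 3.86% in Th0, 1.90% to 8.16% in Th17, and 13.9% to 27.4% in iTreg libraries. The share of Ikzf5 was at most 8.04% and that of Ikzf2 at most 1.88% in every library. All shares depend on the gene lengths used. The share of Ikzf5 and its place in the order may be too low, since reads on its shared exonic bases may not have been counted.

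**Figure D4:**
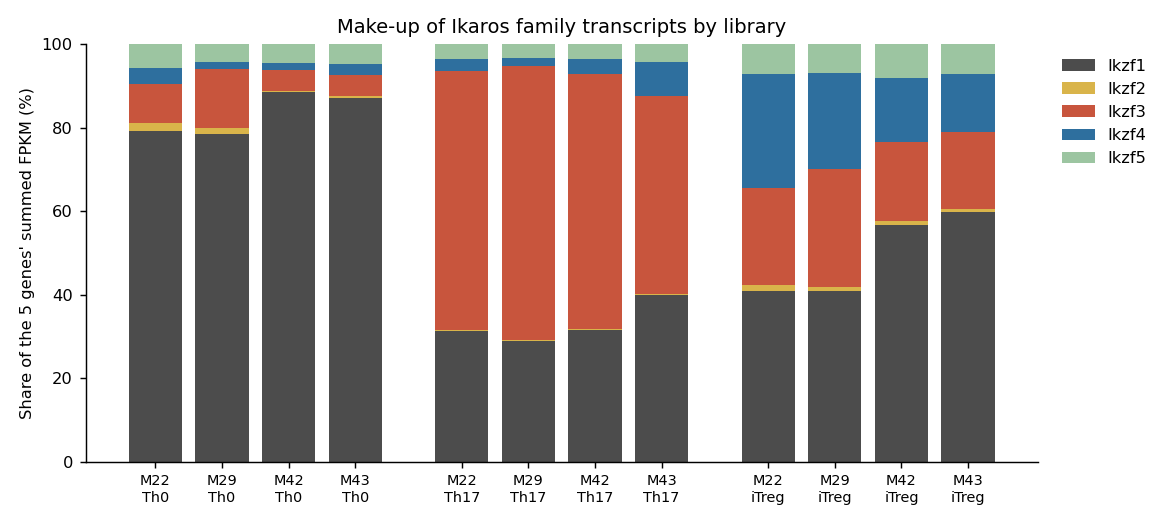
Make-up of the Ikaros family transcripts in each of 12 libraries, as the percentage of the 5 genes' summed FPKM (vertical axis, stacked to 100%), with Th0 and Th17 libraries from the Th17 table and iTreg libraries from the iTreg table. Ikzf1 fills at least 78.5% of the bar in Th0 libraries, Ikzf3 is the largest part in the Th17 libraries, and Ikzf4 takes at least 13.9% in iTreg libraries alone.

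The level of Ikzf3 relative to Ikzf1 in the same library does not depend on the scaling between libraries. Its size depends on the gene lengths used, so that a ratio above 1 rests on them. The ratio of their FPKM was 0.0566 to 0.182 in Th0, 1.19 to 2.28 in Th17, and 0.310 to 0.695 in iTreg libraries. These ranges did not overlap. On the log2 scale, with 1 FPKM added to both levels, the mean ratio was 4.19 higher in Th17 than in Th0 cells (0.84 ± 0.409 against -3.35 ± 0.776, SD, n = 4 each, two-sided exact permutation p = 0.0286). For iTreg cells it was 2.23 higher (-1.13 ± 0.553 against -3.35 ± 0.775, SD, n = 4 each, two-sided exact permutation p = 0.0286). A p of 0.0286 is the smallest that 70 arrangements of 4 against 4 libraries allow, and the test takes the libraries as unpaired.

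The corepressor genes through which Ikaros proteins act were examined as a list. Of 17 genes of the NuRD, Sin3, and CtBP complexes, 16 were tested in each comparison, and 2 were higher and 2 lower in Th17 cells while 12 did not pass. In iTreg cells 1 was higher, 1 lower, and 14 did not pass. Among all tested genes, 19.3% passed in the Th17 and 16.6% in the iTreg comparison. The median log2 differences of -0.07 and -0.04 lay beside -0.00071 and 0.01 for all tested genes. With the block, 4 genes were higher and 4 lower in Th17, and 3 were higher and 5 lower in iTreg cells, beside 37.8% and 40.9% of all tested genes that passed in either direction. The NuRD subunit Mta3 changed most and was called higher in both comparisons, at 29.6 ± 4.72 FPKM in Th17 against 12.6 ± 1.93 FPKM in Th0 cells (SD, n = 4 each, limma adjusted p = 0.000834). In iTreg cells Mta3 was at 22.6 ± 1.60 FPKM (SD, n = 4, limma adjusted p = 0.00242).

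Gatad2b, another NuRD subunit, was called higher in Th17 cells at 38.3 ± 0.622 FPKM against 29.9 ± 1.33 FPKM in Th0 cells (SD, n = 4 each). The deacetylase Hdac1 was called lower there at 99.0 ± 13.1 FPKM against 133 ± 13.1 FPKM (SD, n = 4 each), and the histone chaperone Rbbp4 at 71.5 ± 15.2 FPKM against 107 ± 17.7 FPKM (SD, n = 4 each). Ctbp1, a corepressor that Eos binds, was called lower in iTreg cells at 88.5 ± 1.87 FPKM against 110 ± 8.42 FPKM in Th0 cells (SD, n = 4 each). These 4 calls (limma adjusted p = 0.0212 to 0.0465) were each lost under at least 5 of 19 other settings, without a change of sign. The ATPase Chd4 was at 103 ± 13.5 FPKM in Th17 and 100 ± 19.8 FPKM in iTreg cells against 124 ± 16.1 and 122 ± 15.8 FPKM in Th0 cells of the same table (SD, n = 4 each), and did not pass without the block but did with it (limma adjusted p with the block = 0.0472 and 0.0201). In iTreg cells Rbbp4 was lower without passing in the fit without the block (limma adjusted p = 0.104), and it passed with the block (limma adjusted p = 0.00264).

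Of 19 genes that the family is known to control or to work with in T cells, 16 were tested in the Th17 comparison, and 9 were higher, 2 lower, and 5 did not pass. Of the 13 tested in the iTreg comparison, 7 were higher, 3 lower, and 3 did not pass. Ifng, Prdm1, and Hes1 are not listed in the Th17 table, Il17a, Il10, Prdm1, and Hes1 are not listed in the iTreg table, and Tbx21 and Ifng were under its filter. Among all tested genes, 19.3% passed in the Th17 and 16.6% in the iTreg comparison, in either direction. The median log2 differences were 0.95 and 0.65, beside -0.00071 and 0.01 for all tested genes. With the block 12 were higher and 2 lower in Th17, and 7 were higher and 5 lower in iTreg cells. Of all tested genes, 37.8% and 40.9% passed with the block in either direction. Many of these genes were listed because they define Th17 or iTreg cells, so that their direction says nothing of the family.

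Il2, the T cell growth factor that Aiolos and Ikaros repress, was lower in both comparisons. It was at 34.3, 19.0, 42.7, and 56.3 FPKM in Th0 and at 3.37, 5.82, 3.38, and 3.64 FPKM in Th17 libraries, with a log2 difference of -2.88 (SE 0.306, limma adjusted p = 0.000299). In iTreg libraries it was at 1.26, 1.50, 3.40, and 3.54 FPKM, with a log2 difference of -3.47 (SE 0.354, limma adjusted p = 0.000353). All polarized libraries thus lay below all Th0 libraries for Il2. The gene of the IL2 receptor chain, Il2ra, was higher in both, at 287 ± 95.7 FPKM in Th17 and 442 ± 112 FPKM in iTreg cells against 134 ± 44.5 and 133 ± 43.9 FPKM in Th0 cells (SD, n = 4 each, limma adjusted p = 0.0295 and 0.00298). The Th17 call of Il2ra was lost in 4 of 8 fits that left out 1 library, those without Th17 M22, Th17 M43, Th0 M29, or Th0 M42 (limma adjusted p up to 0.0762).

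The genes of the factors that act upstream of Aiolos in Th17 cells, the aryl hydrocarbon receptor and Stat3, were higher in both comparisons. Ahr was at 66.7 ± 11.8 FPKM in Th17 and 9.52 ± 1.98 FPKM in iTreg cells, against 1.36 ± 0.526 and 1.34 ± 0.523 FPKM in Th0 cells (SD, n = 4 each). Stat3 was at 163 ± 8.13 FPKM in Th17 and 81.5 ± 2.39 FPKM in iTreg cells, against 52.2 ± 2.70 and 51.6 ± 2.75 FPKM (SD, n = 4 each). By group mean, Ahr and Stat3 were highest in Th17 cells, as Ikzf3 was, and a link between them was not tested. Among the Th17 libraries, Ahr and Stat3 were highest in M42 (82.7 and 174 FPKM) and Ikzf3 in M29 (188 FPKM). Stat5b, which carries the IL2 signal, was called higher in both comparisons, while its relative Stat5a was called higher in iTreg cells. In Th17 cells Stat5a did not pass without the block (limma adjusted p = 0.0955) and passed with it (limma adjusted p = 0.00648). Without the block and with 1 library left out, it passed only when that library was Th0 M22 (limma adjusted p = 0.0433). The other such fits had a limma adjusted p of 0.0891 to 0.218.

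Of the genes of the T helper lineages, Il17f, an interleukin of Th17 cells, was at 482 ± 222 FPKM in Th17 and 57.6 ± 32.4 FPKM in iTreg cells, while its Th0 level of about 0.124 FPKM rests on 1 or 2 reads per library. Il17a and Il10 were called higher in Th17 cells, and Foxp3 in iTreg cells. In Th17 cells Foxp3, which only the M43 library held above 5 FPKM, did not pass, at a log2 difference of -0.17 (limma adjusted p = 0.927). Without the Th17 library M43 the log2 difference was -1.23 and did not pass either (limma adjusted p = 0.179). Gata3, a Th2 factor, was lower in Th17 cells at 2.40 ± 0.674 FPKM against 12.2 ± 2.91 FPKM in Th0 cells (SD, n = 4 each). In iTreg cells Gata3 was lower without passing in the fit without the block (limma adjusted p = 0.145), and it passed with the block (limma adjusted p = 0.0344).

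Bcl6 and Satb1 were called in opposite directions in the 2 comparisons. Bcl6, the lineage factor of follicular helper T cells, was at 31.0 ± 13.5 FPKM in Th17 against 7.92 ± 1.92 FPKM in Th0 cells, and at 4.70 ± 0.620 FPKM in iTreg against 7.83 ± 1.91 FPKM in Th0 cells (SD, n = 4 each, limma adjusted p = 0.00634 and 0.0352). Satb1, a chromatin organizer of T cells, was at 88.2 ± 7.27 FPKM in Th17 against 45.6 ± 8.33 FPKM, and at 14.4 to 32.8 FPKM in iTreg libraries against 45.1 ± 8.26 FPKM in Th0 cells (SD, n = 4 each, limma adjusted p = 0.00194 and 0.0209). With 1 library left out, the iTreg call of Bcl6 held without Th0 M22 but was lost without any of the others (limma adjusted p up to 0.0921), and that of Satb1 was lost without Th0 M22, Th0 M29, or iTreg M43 (limma adjusted p up to 0.0627). The Th17 and iTreg levels were not tested against each other.

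**Figure D5:**
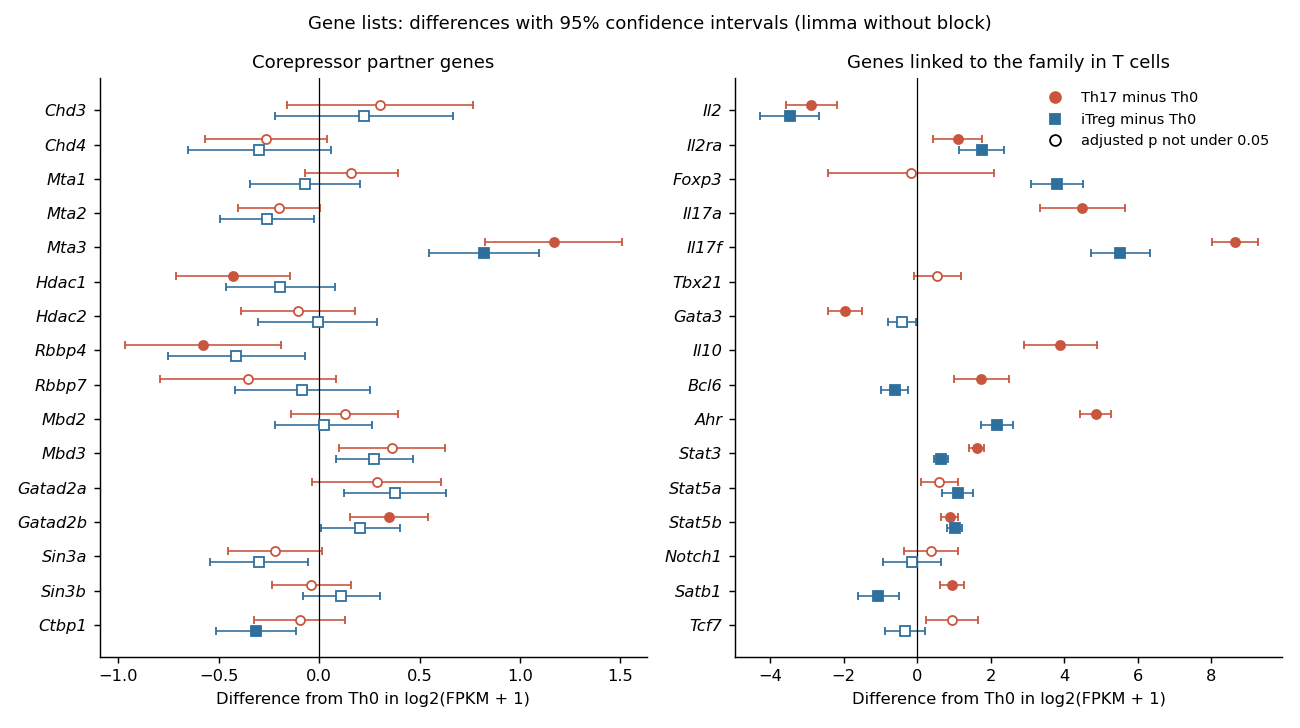
Difference from Th0 in log2(FPKM + 1) (horizontal axes, with separate scales) for the tested corepressor genes on the left and the tested genes linked to the family on the right. Circles are Th17 and squares iTreg cells, bars are 95% confidence intervals from limma without a block with 4 libraries per group, and open symbols did not pass an adjusted p of 0.05. Among the corepressor genes plotted, Mta3 lies farthest from 0 in both comparisons, with 1.17 and 0.82.

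The genes with the pattern most like that of each member were sought over 12 values, as the Pearson correlation of log2(FPKM + 1) after subtraction of the Th0 mean of the table, among 10078 other genes tested in both. The 12 values form 3 groups and share Th0 libraries, so that the correlations describe mainly the group levels. Ikzf2 was not tested in both tables and has no such list. For Ikzf1 these genes were Tle3 (r = 0.985), Foxn2 (r = 0.982), and Ptpn11 (r = 0.980). Tle3, which encodes a corepressor of the Groucho type, was at 117 ± 6.96 FPKM in Th0, 38.7 ± 3.34 FPKM in Th17, and 33.2 ± 5.34 FPKM in iTreg cells (SD, n = 4 each).

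For Ikzf3 they were Wbp1l (r = 0.989), Trib2 (r = 0.979), and Ahrr (r = 0.979). Trib2, a pseudokinase gene, was at 17.2 ± 5.33 FPKM in Th0, 88.0 ± 30.3 FPKM in Th17, and 31.2 ± 9.72 FPKM in iTreg cells (SD, n = 4 each). Ahrr, the repressor gene of the aryl hydrocarbon receptor, was low but had the same order, with 0.563 ± 0.314, 3.39 ± 0.859, and 1.26 ± 0.195 FPKM (SD, n = 4 each). For Ikzf4 the genes were Traf6 (r = 0.966), Ccr8 (r = 0.949), and Agpat3 (r = 0.948). The chemokine receptor gene Ccr8 was at 17.1 ± 9.03 FPKM in Th0, 47.7 ± 23.7 FPKM in Th17, and 311 ± 95.8 FPKM in iTreg cells (SD, n = 4 each). For Ikzf5, whose own range was narrow, they were Dusp5 (r = 0.929), Phldb1 (r = 0.929), and Adat1 (r = 0.927). Dusp5, a phosphatase gene, was at 33.7 ± 3.04 FPKM in Th0, 16.0 ± 4.26 FPKM in Th17, and 61.5 ± 2.12 FPKM in iTreg cells (SD, n = 4 each).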

How the data were processed

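RNA from 12 cultures had been sequenced as paired ends. The authors aligned the reads with TopHat2 2.0.14 to mm10, and made counts per gene on exons with HTSeq-count in union mode without strand. The authors dropped low genes by CPM and compared groups with edgeR in a paired design. They deposited FPKM values in 2 tables, each scaled separately, so that the same Th0 libraries are 0.886% to 1.21% higher in the Th17 table. The step from counts to FPKM and the gene annotation were not given in the sources used here. Deposited columns of the authors' own comparison (log2 fold change, log2 CPM, likelihood ratio, p-value, and FDR) were not used.

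Groups were taken from the labels, and each column's group from its heading. Within each table, genes had to exceed 1 FPKM in 4 or more of 8 libraries. limma 3.58.1 (R 4.3.3) was fitted to log2(FPKM + 1) without a block, and an adjusted p under 0.05 (Benjamini-Hochberg) was called DE. On this scale the change of low genes is understated. Of the listed genes, 10269 of 11077 and 10208 of 11056 were tested. Whether the beginnings of the headings pair the libraries is not stated. Libraries with the same beginning deviated together from their group means. Their correlations across genes were 0.450 to 0.784 in the Th17 and 0.662 to 0.769 in the iTreg table. Between a polarized and a Th0 library of different beginnings they ran from -0.590 to 0.434 and from -0.576 to 0.248. A fit with the beginning as a replicate block was planned as the alternative. Its value is given where it changed the call of a family member, and for only some of the list genes whose call it changed. Group means of log2(FPKM + 1), and of the Ikzf3 to Ikzf1 log2 ratio, were compared with two-sided exact permutation tests in Python 3.11.15.

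FPKM steps gave whole reads for 99.9% of the genes within 0.02 reads, as the smallest counts that fit the steps, and limma-voom was run on them as an alternative chosen after seeing the data. Other alternatives were the pseudocount, the filter, the scaling, a variance trend, an FDR of 0.01, and leaving out libraries. The limma fit without a block was tested on simulated data with independent libraries. The block, limma-voom, and the permutation tests were not tested in this way. p-values measure only the spread between these cultures. The family members, the corepressor list, and the list of linked genes were chosen with earlier results of these data known, and 1 gene of the linked and marker lists is not reported here. Genes of these lists were named if they passed in either comparison or changed most, and Chd4 and Pstk were named after their values had been seen. Likeness lists hold the 3 genes with the highest correlation. Coordinates, exon overlaps, and sequences come from GENCODE vM21 on GRCm38.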

Additional observations from a re-analysis of the deposited data

Results flagged for a closer look

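Ikzf5 stood out because all Th17 libraries lay below, and all iTreg libraries above, the mean of the Th0 libraries, with differences of -0.14 and 0.16 in log2(FPKM + 1). Bcl6 (1.75 in Th17 and -0.61 in iTreg cells) and Satb1 (0.95 and -1.05) stood out in the same way. None of these contrasts between Th17 and iTreg cells was tested, since the tables were scaled separately. Among 67 sets of 4 libraries examined for a library far from the other 3, of which chance flags about 1 in 20, 6 were flagged. They were Foxp3 in the Th17 library M43 (42.5 FPKM), Ctbp1 (115 FPKM) and Il2 (5.82 FPKM) in the Th17 library M29, Il10 (3.71 FPKM) and Stat3 (56.2 FPKM) in the Th0 library M29, and Il17a in the Th0 library M22 (0.114 FPKM, which is 1 read where the other Th0 libraries have 0).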

How the results depend on the processing

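Ikzf1 in both comparisons, Ikzf3 in Th17 cells, and Ikzf4 in iTreg cells kept their direction and passed under every alternative run. Ikzf5 in both comparisons, and Ikzf2 in Th17 cells, kept their direction and passed under none in which they were tested. The replicate block on the beginnings of the headings raised the number of DE genes from 1983 to 3882 (Th17) and from 1691 to 4170 (iTreg), and limma-voom on whole reads with the block gave 4047 and 4474. It brought Ikzf4 in Th17 cells (0.76, with limma-voom 0.96) and Ikzf3 in iTreg cells (1.05 and 1.08) past the threshold and changed no other call of a limma fit on a member. For the log2 ratio of Ikzf3 to Ikzf1 (4.19 and 2.23), sign changes within 4 pairs cannot pass at all, with 0.125 as the smallest exact p. An FDR of 0.01 left 995 and 778 DE genes. With 1 library left out, 1218 (without Th17 M22) to 2083 genes were DE in the Th17 comparison, with 1313 without Th0 M43 and 1514 without Th17 M43, and 994 (without iTreg M22) to 1477 in the iTreg comparison. With the block and both libraries of a beginning left out, these numbers were 2414 to 3447 and 2756 to 3675. With libraries left out in either way, the log2 difference of Ikzf4 in Th17 cells was 0.45 to 1.02 and that of Ikzf3 in iTreg cells 0.86 to 1.38, and the log2 ratio in iTreg cells was 2.002 to 2.54, where 2 of 8 fits (without iTreg M22 or M29) lost the call (exact permutation p = 0.0571) and the other 6 kept it (exact permutation p = 0.0286). Ikzf2 in iTreg cells turned its sign with a pseudocount of 0.1 (0.10) and with limma-voom on whole reads (0.26), and ran from -0.30 to 0.23 with libraries left out, all without passing. The cause of these changes was not tested. Scaling libraries to a common median moved no library by more than 0.1 on the log2 scale. At 32 to 263 reads, Ikzf2 is limited by depth.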
